A study of Mus musculus with 8 samples.

Results

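The 10 genes described here encode the enzymes that turn arachidonic acid into prostaglandins, prostacyclin, leukotrienes and related lipids: Pla2g4a, Ptgs1, Ptgs2, Ptges, Ptgis, Hpgds, Alox5, Alox5ap, Ltc4s and Alox15. They were taken by symbol from a table of 24339 genes, without regard to their values, and each was found once. RNA was sequenced from cultured peritoneal macrophages, the phagocytes that are washed from the abdominal cavity, of C57BL/6 mice that were wild type or α7nAChR-/-, that is, lacking Chrna7, the gene of the α7 nicotinic receptor for acetylcholine. The plated cells of each genotype received vehicle or 10 µM nicotine for 15 min, and then vehicle or lipopolysaccharide (LPS, the outer membrane glycolipid of Gram-negative bacteria, a ligand of Toll-like receptor 4) at 100 ng/ml for 4 h. These 8 groups, wild type and knockout each with vehicle, nicotine, LPS, or nicotine and LPS, had 1 library each. The labels do not say how many animals or how many preparations the cells came from, so a genotype and its preparation cannot be told apart, and the p-values cover only the spread among these libraries.

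Cytosolic phospholipase A2 (Pla2g4a) frees arachidonic acid from membranes. The cyclooxygenases, the constitutive Ptgs1 and the inducible Ptgs2, convert it to prostaglandin H2, from which terminal synthases make prostaglandin E2 (Ptges), prostacyclin (Ptgis) or prostaglandin D2 (Hpgds). In the other branch arachidonate 5-lipoxygenase (Alox5), which is presented with its substrate by the membrane protein Alox5ap, makes leukotriene A4, and Ltc4s joins that to glutathione to give leukotriene C4. Alox15, the 12/15-lipoxygenase, is a known product of resident peritoneal macrophages. Macrophages given LPS are known for making prostaglandin E2 through Ptgs2 and Ptges.

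Promoter sequence was looked up for the 10 genes in a RefSeq table (GRCm38.p6), in windows of 300 bases from 250 before to 50 after the RefSeq start, and 7 matched by symbol. Those of Ptgs2 (chr1:150099781-150100080, plus strand), Ptges (chr2:30903248-30903547, minus strand) and Pla2g4a (chr1:149961241-149961540, minus strand) are shown because these 3 genes shared their course over the treatments, highest with LPS alone. That of Hpgds (chr6:65144681-65144980, minus strand) is shown as an example of the opposite course, lowest with LPS alone, which Ptgs1, Alox5ap and Ltc4s also had. The RefSeq starts of Ptges and Hpgds lie inside the GENCODE gene spans given below, not at their 5′ ends. Capitals mark matches to the 7 motifs searched on both strands.
Ptgs2: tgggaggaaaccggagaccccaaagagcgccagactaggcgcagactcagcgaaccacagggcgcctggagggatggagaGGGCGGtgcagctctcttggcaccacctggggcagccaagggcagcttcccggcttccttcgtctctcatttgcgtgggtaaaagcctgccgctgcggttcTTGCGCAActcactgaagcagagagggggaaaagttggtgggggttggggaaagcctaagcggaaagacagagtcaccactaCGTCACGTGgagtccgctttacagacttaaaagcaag
Ptges: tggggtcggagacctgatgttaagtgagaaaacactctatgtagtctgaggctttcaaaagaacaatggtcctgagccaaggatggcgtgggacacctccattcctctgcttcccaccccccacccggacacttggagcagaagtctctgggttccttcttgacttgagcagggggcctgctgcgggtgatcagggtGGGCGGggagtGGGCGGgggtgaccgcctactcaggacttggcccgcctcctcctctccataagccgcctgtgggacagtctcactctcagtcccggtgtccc
Pla2g4a: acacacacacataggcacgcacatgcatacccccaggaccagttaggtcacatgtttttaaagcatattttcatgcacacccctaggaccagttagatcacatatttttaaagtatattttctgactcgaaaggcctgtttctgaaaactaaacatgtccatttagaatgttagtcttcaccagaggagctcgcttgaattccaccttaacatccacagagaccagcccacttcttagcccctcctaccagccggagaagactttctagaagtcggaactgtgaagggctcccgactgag
Hpgds: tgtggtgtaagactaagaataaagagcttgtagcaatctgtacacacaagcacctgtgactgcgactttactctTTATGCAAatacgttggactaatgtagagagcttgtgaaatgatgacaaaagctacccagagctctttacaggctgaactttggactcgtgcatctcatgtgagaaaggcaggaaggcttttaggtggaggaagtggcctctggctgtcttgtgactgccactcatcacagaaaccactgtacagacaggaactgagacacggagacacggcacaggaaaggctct
In Ptgs2 the capitals are, in order, a GC box (GGGCGG) from base 81, a C/EBP site (TTGCNNAA) from base 182, and a cyclic AMP response half-site (TGACG, here on the other strand) from base 264 that overlaps an E-box (CACGTG) from base 267. Ptges had GC boxes from bases 198 and 209, Hpgds a C/EBP site from base 75 on the other strand, and Pla2g4a no match. Of the promoters not printed, Alox5 had a GC box from base 216, and Ptgs1 and Ltc4s had none of the motifs. An AP-1 site (TGANTCA), an NF-kB site and an amino acid response site (TGATGNAA) were found in 0 of the 7 promoters. Among all 32851 promoter windows of this length in the table, 35.7% held the GC box, 20.8% the cyclic AMP half-site, 10.8% the C/EBP site, 7.15% the E-box, 8.46% the NF-kB site, 7.81% the AP-1 site and 3.97% the amino acid response site. These matches describe letters in a window and were not tested for binding.

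All values are FPKM, fragments scaled to transcript length and library size, and all 10 genes passed the filter used for testing, a mean of at least 1 FPKM over the 8 libraries, as did 10447 of all genes. Depth was not given in counts; the steps between low values put the libraries within 1.65-fold of each other in depth. Chrna7 was listed at 0 in all 8 libraries, so the table does not check the genotype labels, and Gapdh, a glycolytic gene used by every cell, was listed at only 1.34 to 8.90 FPKM, so low values can be failed estimates. The macrophage marker Lyz2 was at 17576 to 32448 FPKM, and the 6 macrophage markers summed to 19226 to 34500. Markers of other cells were present too: summed FPKM was 161 to 810 for 9 mast cell genes, 162 to 353 for 7 B cell genes, 254 to 491 for 7 genes of small peritoneal macrophages or monocytes and 206 to 1435 for 6 platelet genes, mostly Pf4. The 6 neutrophil genes summed to 35.5 to 229, mostly S100a8 and Mmp9, but the defining neutrophil marker S100a9 was at most 0.635 FPKM. T cell genes summed to 3.07 to 10.1, dendritic cell genes to 2.56 to 48.8, mesothelial or fibroblast genes to 1.12 to 19.6 and eosinophil genes to 1.91 to 6.84, with the eosinophil peroxidase gene Epx at 0 throughout. In such bulk RNA, fewer cells of a type and less RNA per cell cannot be told apart.

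**Figure D1:**
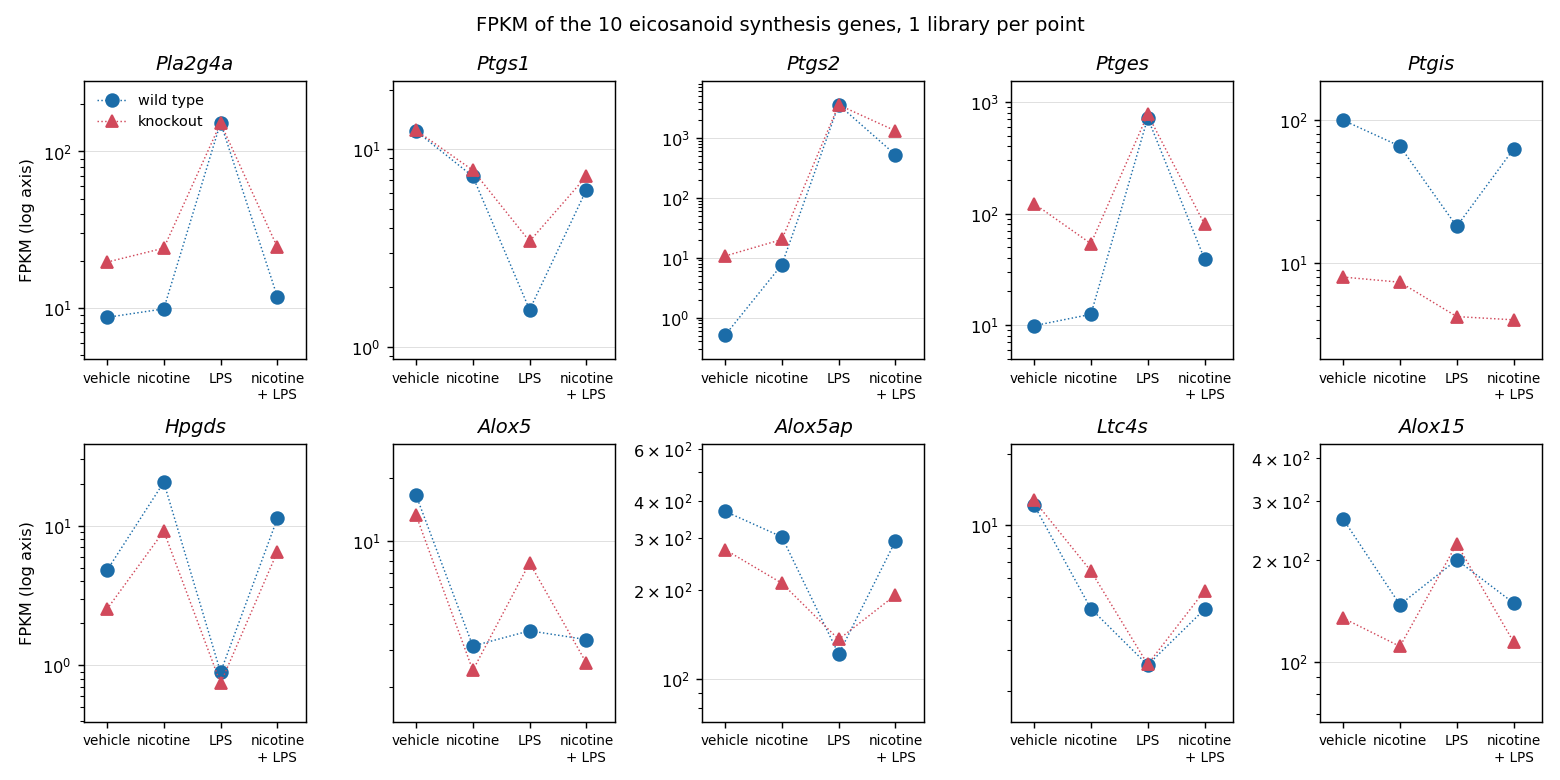
FPKM (vertical log axes, one scale per gene) of the 10 genes in the 4 treatments, 1 library per point, with blue circles for wild type and red triangles for knockout; dotted lines only join the points of a genotype. Ptgs2, Ptges and Pla2g4a peak with LPS alone, Ptgs1, Hpgds, Alox5ap and Ltc4s are lowest there, and Ptgis lies lower in all 4 knockout libraries than in any wild type library.

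Release of arachidonic acid is the first step. Pla2g4a (chr1:149829618-149961290, minus strand; GENCODE M21 on GRCm38, as for all gene positions below) was at 8.70 FPKM with vehicle, 9.86 after nicotine, 153 after LPS and 11.8 after nicotine and LPS in wild type cells. Knockout cells had 19.6, 24.1, 152 and 24.4 FPKM in the same order. Both libraries given LPS alone stood far above the other 6, and the other libraries differed more by genotype than by treatment, with each knockout value above each wild type one.

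The cyclooxygenases moved against each other. Ptgs2 (chr1:150100031-150108227, plus strand), which lies 138740 bases from Pla2g4a, was at 0.508 FPKM with vehicle, 7.66 after nicotine, 3572 after LPS and 522 after nicotine and LPS in wild type cells. In knockout cells it was at 10.7, 20.2, 3555 and 1312 FPKM. Without LPS it thus ranged from 0.508 to 20.2 FPKM and with LPS from 522 to 3572, so the 4 LPS libraries did not overlap the others. Ptgs1 (chr2:36230426-36252272, plus strand) was at 12.4, 7.30, 1.54 and 6.24 FPKM in wild type cells and 12.5, 7.84, 3.42 and 7.31 in knockout cells, again with vehicle, nicotine, LPS, and both. Its highest values were the 2 vehicle libraries and its lowest the 2 with LPS alone, while the 4 libraries with nicotine lay together between them.

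Of the terminal synthases, Ptges (chr2:30889471-30929863, minus strand) was at 9.87 FPKM with vehicle, 12.5 after nicotine, 719 after LPS and 39.2 after nicotine and LPS in wild type cells. The knockout libraries had 123, 53.7, 775 and 80.3 FPKM. LPS alone gave the 2 highest values, but the knockout vehicle library stood above both libraries given nicotine and LPS. Ptgis (chr2:167191805-167240604, minus strand) was at 99.5, 65.5, 18.1 and 62.6 FPKM in wild type and at 7.99, 7.36, 4.23 and 4.02 in knockout cells, so the genotypes did not overlap. Hpgds (chr6:65117293-65144908, minus strand) was at 4.78, 20.5, 0.891 and 11.3 FPKM in wild type and at 2.52, 9.14, 0.743 and 6.51 in knockout cells. Its 4 nicotine libraries lay above the 4 without nicotine, and the 2 with LPS alone were below 1 FPKM.

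In the leukotriene branch, Alox5 (chr6:116410077-116461178, minus strand) was at 16.5 FPKM with vehicle, 3.13 after nicotine, 3.70 after LPS and 3.36 after nicotine and LPS in wild type cells. Knockout cells had 13.3, 2.39, 7.82 and 2.59 FPKM, so that all 4 nicotine libraries lay below the 4 without. Alox5ap (chr5:149264767-149288153, plus strand) was far more abundant, at 369, 302, 121 and 293 FPKM in wild type and 274, 211, 136 and 192 in knockout cells, with its lowest values in the 2 libraries given LPS alone. Ltc4s (chr11:50236461-50238616, minus strand) was at 12.2, 4.46, 2.58 and 4.43 FPKM in wild type and 12.7, 6.42, 2.60 and 5.30 in knockout cells. The 2 vehicle libraries were its highest and the 2 with LPS alone its lowest, as for Ptgs1. Alox15 (chr11:70344152-70352031, minus strand) was at 264, 148, 200 and 149 FPKM in wild type and 135, 111, 223 and 114 in knockout cells. Its wild type maximum was the vehicle library and its knockout maximum the LPS library. Annotated transcripts on the opposite strand overlap Ptgis (1110018N20Rik and Gm14291), Alox5ap (Gm19719), Ltc4s (Gm26542), Ptgs1 (Gm43621), Hpgds (Gm17147) and Pla2g4a (n-R5s219, a ribosomal RNA, as does n-R5s180 for Alox5ap), and the pseudogene Gm13400 lies within Ptges on the same strand. These are overlaps of whole gene spans, and whether exons overlap was not checked. Where they do, reads cannot be told apart from those of the gene, since the library kit does not mark strand.

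LPS without nicotine raised 3 members of the prostaglandin E2 route and lowered most other members. Ptgs2, Ptges and Pla2g4a rose, Ptgs1, Ptgis, Hpgds, Alox5, Alox5ap and Ltc4s fell, and Alox15 did not pass the test. That made 9 of 10 members called, where 59.1% of all tested genes were called, by limma on log2(FPKM + 1) at an adjusted p under 0.05. The model takes both genotypes as the only repeat of each treatment, so every change is a mean of 2 pairs of libraries, and log2 changes on this scale understate those of low genes. The median log2 change of the members was -1.30, beside 0.08 over all tested genes. With quantile scaling the median of all genes was -0.07, and the share of all calls that were higher went from 55.4% to 45.2%, while the 9 members kept their direction and passed and Alox15 passed as well, giving 10 of 10.

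The 3 members that rose did so in both genotypes. Ptgs2 rose by 9.73 ± 0.59 (SE) on the log2(FPKM + 1) scale, an 849-fold change (limma, adjusted p = 9.38e-05). Ptges rose by 4.35 ± 0.71, or 20.4-fold (limma, adjusted p = 0.00237), and Pla2g4a by 3.44 ± 0.29, or 10.8-fold (limma, adjusted p = 0.000235). The vehicle libraries of the genotypes differed: Ptgs2 and Ptges were 21.0-fold and 12.4-fold higher in the knockout than in the wild type vehicle library. In single pairs Ptges was 72.9-fold higher with LPS in wild type and 6.32-fold higher in knockout cells. Without the wild type vehicle library the log2 change was 8.69 for Ptgs2 and 3.12 for Ptges, and without the knockout vehicle library 10.8 and 5.58. Without the wild type LPS library it was 8.80 and 3.31, and without the knockout LPS library 10.7 and 5.39, and each of these values passed the test.

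Of the 6 that fell, Ptgs1 changed by -2.01 ± 0.21 on the log2 scale, or 4.02-fold (limma, adjusted p = 0.000499), and Ltc4s by -1.90 ± 0.16, or 3.74-fold (limma, adjusted p = 0.000223). Hpgds fell by 1.31, Alox5ap by 1.30, Alox5 by 1.30 and Ptgis by 1.59 on the same scale (limma, adjusted p = 0.0033, 0.00202, 0.012 and 0.0147). Alox15 was 1.32-fold lower with LPS in the wild type pair and 1.66-fold higher in the knockout pair. The falls of Ptgis and Alox5 did not pass without the wild type vehicle library, with log2 changes of -1.27 and -1.09 (adjusted p = 0.104 and 0.0886). Their log2 changes were -0.83 and -0.70 without the wild type LPS library (adjusted p = 0.0318 and 0.0148) and -2.35 and -1.89 without the knockout LPS library, and passed in both cases. With quantile scaling the change of Alox5ap was -2.28. With a pseudocount of 5, that of Hpgds was -0.56, that of Ptgs1 -1.23 and that of Ltc4s -1.20, and with one of 0.1 that of Hpgds was -1.97, all still called.

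**Figure D2:**
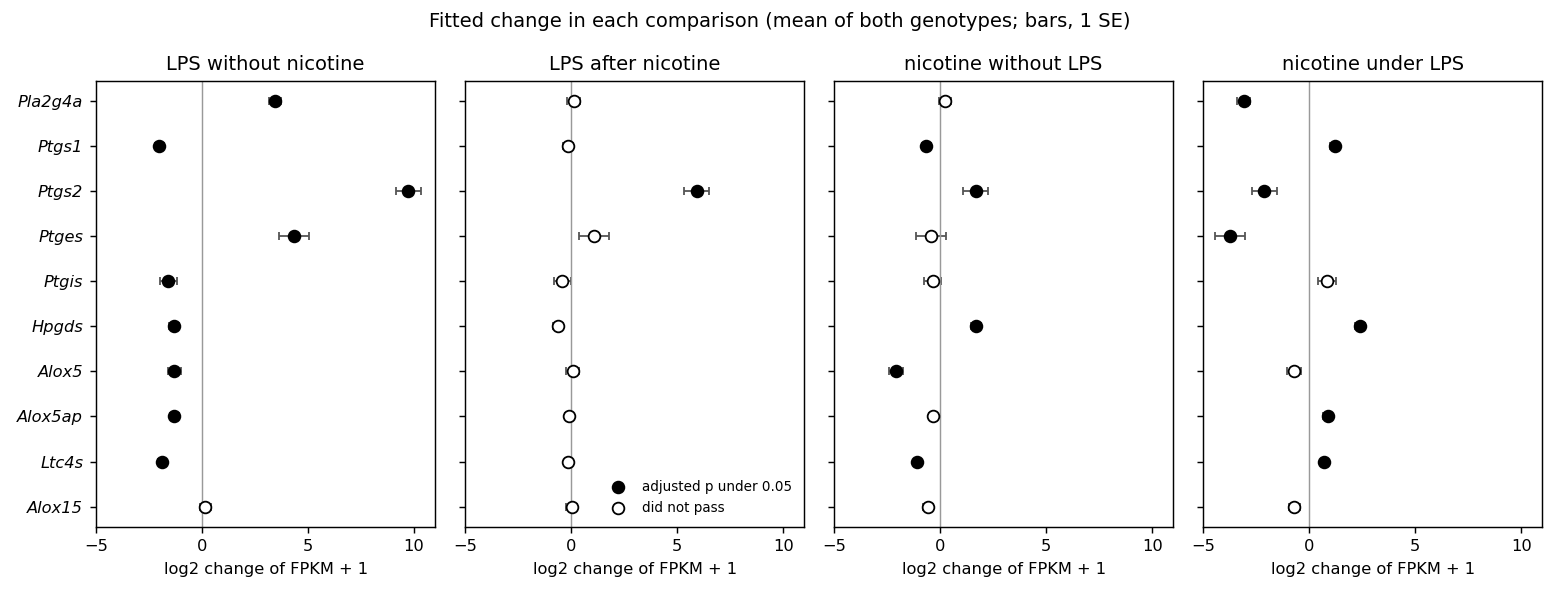
Fitted log2 change of FPKM + 1 (horizontal axis, the same in the 4 panels) of each of the 10 genes for LPS without and after nicotine and for nicotine without and under LPS, as the mean of both genotypes with bars of 1 SE. Filled points had an adjusted p under 0.05: 9, 1, 5 and 7 genes in the 4 panels.

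Nicotine without LPS raised Hpgds and Ptgs2 and lowered Alox5, Ltc4s and Ptgs1. These were 5 of 10 members, beside 56.0% of all tested genes called (limma), so the members were called about as often as genes in general. Their median log2 change was -0.39, beside 0.03 over all tested genes. Alox5 fell by 2.08 ± 0.31 on the log2(FPKM + 1) scale, or 4.22-fold (limma, adjusted p = 0.0022), with single-pair ratios of 5.28 in wild type and 5.54 in knockout cells. Hpgds rose by 1.71 ± 0.23, or 3.27-fold (limma, adjusted p = 0.00153). Ltc4s fell by 1.08 ± 0.16, or 2.11-fold (limma, adjusted p = 0.00208). With a pseudocount of 5 the change of Alox5 was -1.35.

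The other 2 calls were less firm. Ptgs2 rose by 1.69 ± 0.59 (limma, adjusted p = 0.0479), with 15.1-fold in the wild type pair, where the vehicle value was 0.508 FPKM, and 1.89-fold in the knockout pair. It did not pass without the wild type vehicle, nicotine, or nicotine and LPS library (adjusted p = 0.286, 0.179 and 0.0809) or without the knockout nicotine or nicotine and LPS library (0.155 and 0.0808), nor under any of the 7 other settings (0.0506 to 0.107), with log2 changes of 0.94 at a pseudocount of 5 and 2.29 at one of 0.1. Its log2 change ranged from 0.65 without the wild type to 2.73 without the knockout vehicle library. Ptgs1 fell by 0.65 ± 0.21 (limma, adjusted p = 0.0391). This was lost without the wild type vehicle, nicotine, or nicotine and LPS library (0.239, 0.0883 and 0.0681) and without the knockout vehicle, nicotine, or nicotine and LPS library (0.0669, 0.203 and 0.0682), as well as with a pseudocount of 0.1 (0.072) or no filter (0.0815). Ptges had 1.27-fold more FPKM with nicotine in wild type and 2.28-fold less in knockout cells. Alox5ap and Alox15 were lower with nicotine in both pairs and did not pass (limma, adjusted p = 0.205 and 0.0984).

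Under LPS, nicotine lowered the 3 members of the prostaglandin E2 route that LPS alone had raised. Ptges, Pla2g4a and Ptgs2 fell against LPS alone, and Hpgds, Ptgs1, Alox5ap and Ltc4s rose. This comparison shares the 2 libraries given LPS alone with that of LPS without nicotine, so opposite signs in them are not separate results. Called were 7 of 10 members, beside 55.6% of all tested genes (limma), with a median log2 change of 0.01 for the members and -0.03 for all tested genes. Ptges fell by 3.71 ± 0.71, or 13.1-fold (limma, adjusted p = 0.0051), Pla2g4a fell by 3.09 ± 0.29, or 8.51-fold (limma, adjusted p = 0.000446), and Ptgs2 fell by 2.10 ± 0.59, or 4.30-fold (limma, adjusted p = 0.0227). With nicotine and LPS, Pla2g4a was within 1.19-fold of its nicotine-only value in wild type and within 1.01-fold in knockout cells, whereas Ptgs2 stayed 68.2-fold and 65.0-fold above its own. In the other direction Hpgds rose by 2.40 ± 0.23, or 5.29-fold (limma, adjusted p = 0.000471), Ptgs1 by 1.21 ± 0.21, or 2.32-fold (limma, adjusted p = 0.00384), Alox5ap by 0.88, or 1.84-fold (limma, adjusted p = 0.0106), and Ltc4s by 0.70, or 1.63-fold (limma, adjusted p = 0.0102).

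Alox15 had 1.34-fold less FPKM with nicotine under LPS in wild type and 1.95-fold less in knockout cells, and missed the threshold (limma, adjusted p = 0.0529). Alox5 and Ptgis did not pass either (limma, adjusted p = 0.0994 and 0.122). Ptgis was 3.47-fold higher in the wild type pair and 1.05-fold lower in the knockout pair. The fall of Ptgs2 did not pass without the wild type LPS library (log2 change -1.17, adjusted p = 0.118), the wild type nicotine and LPS library (0.104) or the knockout nicotine and LPS library (0.109), nor with quantile scaling (log2 change -1.46, 0.085), a pseudocount of 0.1 (0.0744) or no filter (0.0614). It was -3.04 without the knockout LPS library, and that of Ptges was -2.67 without the wild type and -4.75 without the knockout LPS library. The rise of Alox5ap did not pass without the wild type nicotine and LPS library (adjusted p = 0.0946), nor that of Ltc4s without that library (0.0606) or the knockout one (0.0677).

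The LPS change after nicotine, seen from the other side, was called for 1 of 10 members, beside 14.9% of all tested genes (limma). That was Ptgs2, which rose by 5.94 ± 0.59, or 61.2-fold (limma, adjusted p = 0.00254). The median over the members was -0.03, beside -0.02 over all tested genes. Ptges had 3.14-fold more FPKM with LPS in the wild type and 1.5-fold more in the knockout pair and did not pass (limma, adjusted p = 0.348).

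Whether the LPS change differed with and without nicotine was tested as an interaction, on the log2 scale. It was called for 5 of 10 members, beside 30.1% of all tested genes (limma). The LPS change was smaller after nicotine by 3.79 ± 0.84 for Ptgs2 (interaction -3.79, limma adjusted p = 0.0199) and by 3.31 ± 0.42 for Pla2g4a (-3.31, 0.00549). For Ptgs1, Ltc4s and Alox5ap, which LPS alone lowered, the interaction was 1.86 ± 0.30, 1.78 ± 0.23 and 1.21 ± 0.29 (limma, adjusted p = 0.00911, 0.00559 and 0.0246). Ptges had a value of -3.28 ± 1.00 and missed the threshold (limma, adjusted p = 0.0501), and Alox5 one of 1.38 ± 0.45 (limma, adjusted p = 0.0586). The median was 0.94 over the members and -0.11 over all tested genes, and with quantile scaling the share of all calls above 0 was 55.4%, where it was 42.4% without. The Ptgs2 interaction did not pass without either nicotine library or either nicotine and LPS library (adjusted p from 0.0705 to 0.076), and ranged from -2.75 without the wild type vehicle library and -2.86 without the wild type LPS library to -4.84 without the knockout vehicle and -4.73 without the knockout LPS library. That of Alox5ap did not pass in the absence of the wild type vehicle, nicotine, or nicotine and LPS library or of the knockout vehicle, nicotine, or nicotine and LPS library (adjusted p from 0.0559 to 0.102). With quantile scaling the interaction was 1.87 for Alox5ap and -3.10 for Ptgs2, and with a pseudocount of 5 it was 1.14 for Ptgs1, 1.12 for Ltc4s and -3.04 for Ptgs2.

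Mast cells are a known source of Hpgds, Alox5 and Ltc4s transcripts, and some of their markers moved with treatment. Of the 9 listed genes, 5 were higher with nicotine in all 4 matched pairs, among them the 3 defining markers Cpa3 (21.8 to 134 FPKM), Tpsb2 (59.4 to 293) and Mcpt4 (21.0 to 89.5). Gata2 (1.34 to 4.19) was lower in all 4 pairs, Ms4a2 (0.0863 to 0.799) was lower in 3 of 4, and Hdc was higher with nicotine alone but under LPS lower, at 171 and 55.5 FPKM in wild type and 184 and 57.8 in knockout cells. The summed FPKM of the 9 listed genes was 212, 418, 458 and 810 in wild type and 161, 320, 394 and 632 in knockout cells with vehicle, nicotine, LPS, and both. With LPS alone, Hdc made up 171 and 184 FPKM of this sum. Hpgds was higher with nicotine in all 4 pairs and lowest with LPS alone. Alox5 was lower with nicotine in all 4 pairs, and Ltc4s was lower with nicotine alone and higher with it under LPS. How many of all genes were higher or lower with nicotine in all 4 pairs was not counted, and the part of these cells in the results was not tested.

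The balance between the enzymes can be described within a library, since FPKM is scaled by transcript length. This holds only as far as the FPKM estimate of each gene does, and low values can be failed estimates. Of the summed FPKM of the 3 terminal synthases, Ptges made up 8.64% in wild type cells with vehicle, 12.7% after nicotine, 97.4% after LPS and 34.7% after both. In knockout cells its share was 92.1%, 76.5%, 99.4% and 88.4%, so it led these 3 genes in all 4 libraries. Among the 3, Ptgis led in wild type cells except with LPS alone, with shares of 87.2%, 66.5%, 2.44% and 55.4%. In knockout cells it held 0.543% to 10.5%. Hpgds reached its largest shares with nicotine alone, 20.8% in wild type and 13.0% in knockout cells, but its smallest with LPS alone, 0.121% and 0.0953%. The FPKM of Ptgs2 over that of Ptgs1 was 0.0410, 1.05, 2323 and 83.6 in wild type and 0.855, 2.57, 1039 and 179 in knockout cells. The sum leaves out other prostanoid synthases, among them Ptges3 (34.6 to 191 FPKM) and the thromboxane synthase gene Tbxas1 (34.1 to 80.3). Where Ptgis led the 3, Ptges3 stood above it in the wild type libraries with nicotine and with nicotine and LPS (144 and 191 FPKM). In knockout cells, Ptges3 stood above Ptges with nicotine (126 against 53.7 FPKM) and with nicotine and LPS (187 against 80.3). Tbxas1 was also above Ptges in the knockout nicotine library, at 80.3 FPKM. These shares describe single libraries and say nothing of enzyme activity.

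**Figure D3:**
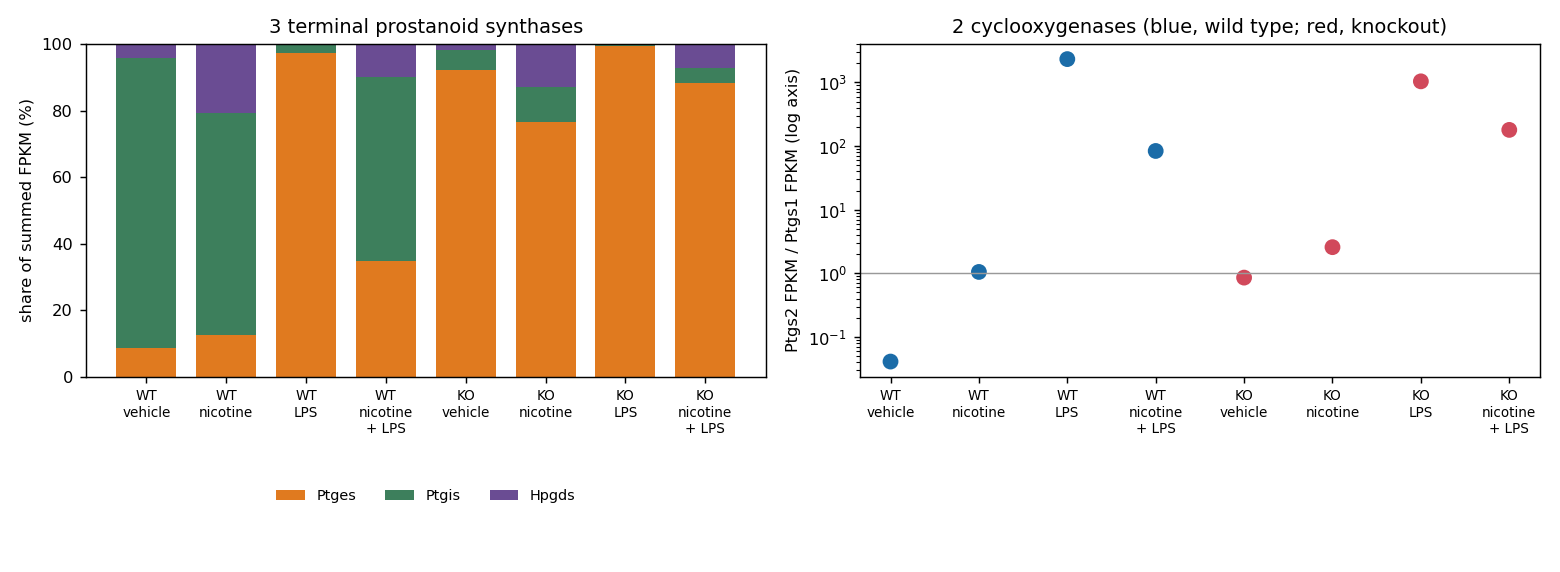
Left, share (%) of Ptges, Ptgis and Hpgds in their summed FPKM in each of the 8 libraries; right, FPKM of Ptgs2 divided by that of Ptgs1 (log axis, line at equal levels), blue for wild type (WT) and red for knockout (KO). Ptgis makes up 87.2% in the wild type and 6.00% in the knockout vehicle library, and the Ptgs2 ratio is highest with LPS alone, at 2323 and 1039.

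Averaged over genotype and nicotine, LPS changed 3 of 10 members, beside 27.0% of all tested genes (limma, additive model). Ptgs2 rose by 7.83 ± 0.84 and Ptges by 2.71 ± 0.80 on the log2 scale (limma, adjusted p = 0.0024 and 0.0466), and Hpgds fell by 0.97 ± 0.22 (limma, adjusted p = 0.0232). Of all genes called, 58.4% were higher with LPS, and 44.5% with quantile scaling. The Ptges call was lost without any one of 6 libraries, all but those with knockout nicotine and with knockout nicotine and LPS (adjusted p from 0.0596 to 0.124), and with quantile scaling (0.0669) or a pseudocount of 5 (0.0525). The Hpgds call was lost without either vehicle library, the wild type nicotine library or the knockout LPS library (0.0521 to 0.086). Alox5ap had a log2 change of -0.69 that did not pass (limma, adjusted p = 0.103), but with quantile scaling it was -1.34 and passed (0.0422). Ptgs2 had a log2 change of 6.97 without the wild type vehicle and 7.01 without the wild type LPS library. Averaged over genotype and LPS, nicotine changed 3 of 10 members, beside 46.3% of all tested genes (limma). Hpgds rose by 2.06 ± 0.22, or 4.16-fold (limma, adjusted p = 0.00085), while Alox5 fell by 1.39 ± 0.35 and Alox15 by 0.62 ± 0.19 (limma, adjusted p = 0.0171 and 0.0353). Alox5 missed the threshold without the wild type nicotine, knockout vehicle or knockout LPS library (0.0525 to 0.0541), and Alox15 without any library but the wild type LPS and knockout vehicle ones (0.0801 to 0.0963).

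Between genotypes, Ptgis was the member that differed. Averaged over treatments it was lower in knockout cells, with a log2 change of -3.0 ± 0.37, or 8.0-fold (limma, adjusted p = 0.0203), in 4 of 4 pairs. This was 1 of 10 members, beside 1.10% of all tested genes (limma, 115 genes). The call was lost without any one of 7 libraries, all but wild type LPS (adjusted p from 0.0617 to 0.1), with log2 changes from -2.69 to -3.15. The single-pair ratios, wild type over knockout, were 12.5 for vehicle, 8.90 for nicotine, 4.26 for LPS and 15.6 for both. Of 9 listed genes of resident peritoneal macrophages, 6 were lower in knockout cells in all 4 pairs and 1, Timd4, was higher in all 4. Vsig4 was at 64.6 to 165 FPKM in wild type and 2.33 to 7.93 in knockout cells and Selp at 11.7 to 21.6 and 0.732 to 6.71, whereas the sums of the 9 genes overlapped, at 898 to 2700 and 590 to 1032, with Fabp7 alone at 1220.3 in the highest. Of the defining markers, Gata6 was at 2.30 to 15.7 and 0.814 to 4.84 FPKM, Icam2 at 19.1 to 28.4 and 13.5 to 30.5, and Timd4 at 20.3 to 108 and 78.3 to 222. Of the defining markers of small peritoneal macrophages or monocytes, Ly6c2 was at 1.97 to 13.4 and 33.9 to 184 FPKM, but Ccr2 at 1.00 to 17.8 and 0.892 to 11.9 and Irf4 at 8.08 to 56.9 and 6.61 to 58.6 overlapped between genotypes. How many of all genes were lower or higher in 4 of 4 pairs was not counted, and the part of these cell types in the Ptgis difference was not tested. The mesothelial markers Msln, Upk3b and Wt1 were at or near 0 in all libraries, at most 0.318 FPKM. The full list of 11 mesothelial or fibroblast genes summed to 19.6 FPKM in the wild type nicotine and LPS library. In the others it summed to 1.12 to 2.84, and the part of such cells in the Ptgis difference was not tested.

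No genotype difference was called for the other 9 members. Ptges and Ptgs2 had more FPKM in knockout than wild type cells in 4 of 4 and 3 of 4 pairs, with ratios of 12.4 and 21.0 for vehicle, 4.30 and 2.63 for nicotine and 2.05 and 2.51 for nicotine and LPS, but 1.08 and 0.995 for LPS alone. The averages did not pass (limma, adjusted p = 0.472 and 0.577). Hpgds was lower in knockout cells in 4 of 4 pairs, by 0.66 ± 0.22 on the log2 scale (-0.66, limma, adjusted p = 0.283). Of the 9 mast cell genes, 7 were lower in 4 of 4 pairs as well, with no count over all genes to set beside them. The part of mast cells in the Hpgds difference was not tested.

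The test of whether nicotine acted differently in the knockout found 0 of 10 members and 0% of all tested genes (limma, 2 residual degrees of freedom), with 451 genes at an unadjusted p under 0.05. The same test for LPS found 0 of 10 members and again 0% of genes, with 840 genes at an unadjusted p under 0.05. With so few libraries this does not show that the genotypes responded alike. The largest value among the members was the LPS by genotype term of Ptges, -2.20 ± 0.55 (limma, adjusted p = 0.551). The falls of Ptges and Pla2g4a with nicotine under LPS were present in both genotypes, 18.4-fold and 13.0-fold in wild type and 9.65-fold and 6.21-fold in knockout cells.

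The wider pathway was read from a list of 71 further genes, of which 70 were in the table and 40 passed the filter. In LPS without nicotine, 12 of the 40 rose and 18 fell (limma), beside 59.1% of all tested genes called, with a median log2 change of -0.37 beside 0.08. The largest rises were in Fpr2, a receptor for lipoxin A4 and formyl peptides (3.4), Acsl1, which joins fatty acids to coenzyme A (2.25), Abcc1, an exporter of leukotriene C4 (1.78), and Pla2g16, a phospholipase (1.61). The largest falls were in Pla2g15, the lysosomal phospholipase (-3.65), Fads1, a desaturase in arachidonate synthesis (-2.88), Cbr1, a carbonyl reductase (-2.00), and Ptgr2, which inactivates prostaglandin metabolites (-1.95). All of these are log2 changes with adjusted p from 8.35e-05 (Pla2g15) to 0.00973 (Fpr2), and Fpr2 did not pass without the wild type vehicle library (0.0694), nor Acsl1 with quantile scaling (0.0539). The thromboxane synthase gene Tbxas1 and Lta4h, which makes leukotriene B4, fell as well, by 0.85 and 1.22. Genes of arachidonate supply, synthesis, breakdown and export, and leukotriene or lipoxin reception were found among both the rises and the falls.

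Nicotine without LPS raised 6 and lowered 15 of the 40 (limma), a share near the 56.0% of all tested genes called (median -0.36 beside 0.03). It raised Ptges3, a co-chaperone with prostaglandin E synthase activity (1.75), Acsl3, a relative of Acsl1 (1.64), Ptgr1, a prostaglandin reductase (1.58), and Ptgir, the prostacyclin receptor (1.34). It lowered Cysltr1, a receptor for cysteinyl leukotrienes (-2.03), Hpgd, which inactivates prostaglandin E2 (-1.90), Ptgr2 (-1.72) and Cmklr1, a receptor for chemerin and resolvin E1 (-1.53). Cysltr1 fell together with Alox5 and Ltc4s, the 2 enzymes that lead to its ligand, with 10.3 FPKM for vehicle and 1.91 for nicotine in wild type and 13.4 and 2.37 in knockout cells. Hpgd was at 11.2 FPKM in the wild type vehicle library and at most 0.55 in the other 7. Its call (limma, adjusted p = 0.0498) was lost without the wild type vehicle, nicotine, or nicotine and LPS library or the knockout nicotine or nicotine and LPS library (0.0773 to 0.256), and with no filter (0.107), quantile scaling (0.0596) or a pseudocount of 5 (0.0875). That of Ptgr1 was lost without the wild type nicotine library (0.0507).

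Under LPS, nicotine raised 10 and lowered 12 of the 40 (limma), a share near the 55.6% of all tested genes called (median -0.07 beside -0.03). Cbr1 (2.41), Acsl3 (2.34), the fatty acid hydroxylase Cyp4f18 (2.08) and the elongase Elovl5 (2.02) rose most. Acsl1 (-3.43), Fpr2 (-2.80), Lpcat2, a lysophospholipid acyltransferase (-2.29), and Cmklr1 (-1.70) fell most. Of other prostaglandin E synthase genes, Ptges3 rose by 0.68 and Ptges2 fell by 1.31 (limma, adjusted p = 0.0212 and 0.00071). Acsl1 was at 191 FPKM with LPS and 14.7 with nicotine and LPS in wild type and at 395 and 40.6 in knockout cells. The Fpr2 call (limma, adjusted p = 0.0221) was lost without either nicotine and LPS library (0.111 and 0.0985) and with no filter (0.0612). After nicotine, LPS raised 0 and lowered 4 of the 40, beside 14.9% of all tested genes called (limma): Pla2g15 (-1.91), Ptgir (-1.20), Pla2g6 (-0.86) and Ptger1 (-0.72). The interaction of LPS and nicotine was called for 22 of the 40, beside 30.1% of all tested genes. Between genotypes Pla2g7, the platelet-activating factor acetylhydrolase, was higher in knockout cells by 1.54 ± 0.20, or 2.91-fold (limma, adjusted p = 0.0237).

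**Figure D4:**
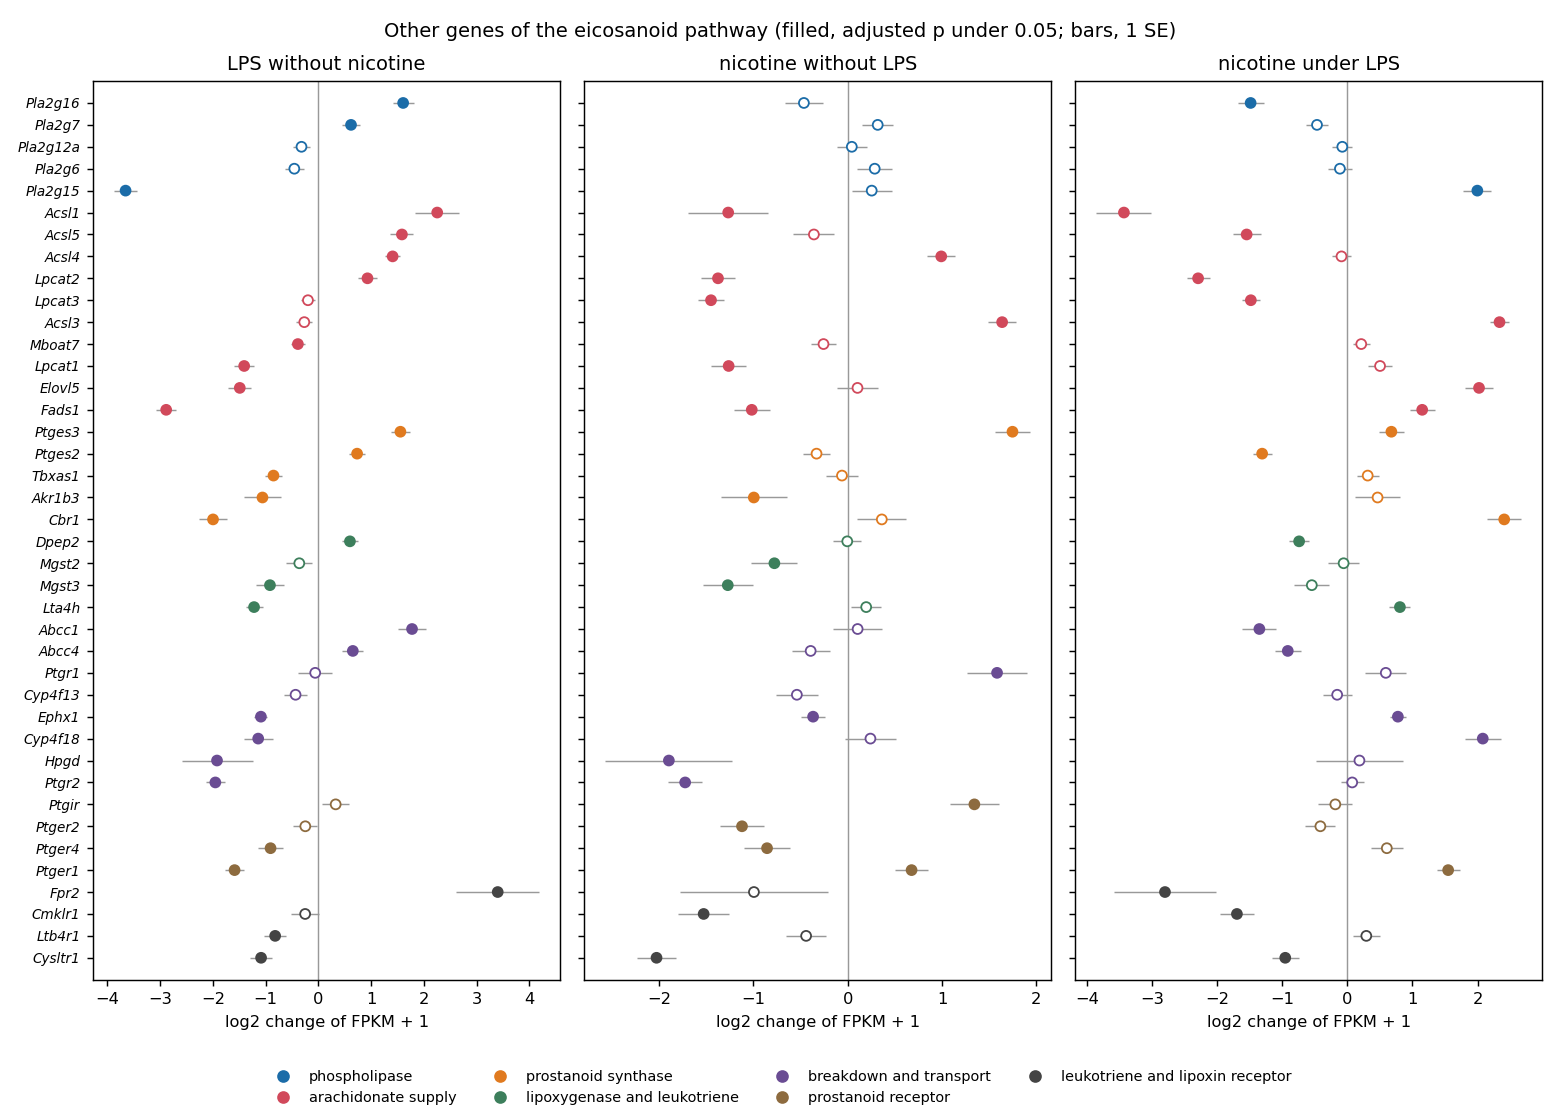
Fitted log2 change of FPKM + 1 (horizontal axes, scaled separately) of the 40 tested pathway genes outside the 10 for LPS without nicotine, nicotine without LPS and nicotine under LPS, colored by role and ordered within each role by the LPS change; bars show 1 SE and filled points an adjusted p under 0.05. In these panels 30, 21 and 22 of the 40 are filled, on both sides of 0.

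Likeness between genes is given as Pearson's r of log2(FPKM + 1) over the 8 libraries, as a description of points that share treatments, genotype and depth. Among the 10 members, Pla2g4a and Ptges were most alike (r = 0.957), then Ptgs1 and Ltc4s (0.905). Alox5ap mirrored Pla2g4a (-0.963) and Ptges (-0.919). Of 10044 genes searched, leaving out Gm and Rik genes, the nearest to Ptgs2 were Mir155hg, the host gene of a microRNA, and Rsad2 and Cd274 (r from 0.993 to 0.994). Nearest to Pla2g4a were Rab5c, Tmbim4 and Sod3, and nearest to Ptges Src, Snf8 and Hcls1 (highest r = 0.993 for Rab5c and 0.987 for Src). Hpgds was most like Zfp646, Slc26a11 and Nr1d2 (0.988 to 0.996), and among the nearest to Ptgis were Slc9a9 (0.984) and Cadm1 (0.981). Alox5 was most like Poli, Sfi1 and the monocyte receptor Ccr2 (0.986 to 0.988). Ccr2 itself was at 17.8 and 11.9 FPKM with vehicle, 1.77 and 4.41 with LPS alone and 0.892 to 1.51 in the 4 nicotine libraries. Of the 7 listed genes of small peritoneal macrophages or monocytes, Ccr2 alone was lower with nicotine in all 4 pairs, and 2 were higher in all 4. The part of these cells in the Alox5 change was not tested. Ltc4s was most like Nicn1, Paics and Syt11, Ptgs1 like Dhcr7, Cdkal1 and Dym, Alox5ap like Fzd4, Nt5dc2 and Ccdc69, and Alox15 like Serpinb1a, Fam20a and Zfp672 (0.940 to 0.973 for Alox15).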

How the data were processed

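RNA was sequenced from 8 groups of cultured peritoneal macrophages with 1 library each, each put in its group by title, genotype and treatment labels. Per the labels' protocols, poly(A) RNA went into TruSeq v2 libraries, a kit that leaves strand unmarked. The deposited table holds the authors' FPKM values. CASAVA 1.8, HISAT2, Cufflinks, Cuffdiff and the build mm10 are named in the submitters' processing notes, with no role or order. The annotation and any filter or scaling is not given in the sources used here. If FPKM is relative to each library's total, abundant genes can shift all others.

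Of 24341 lines, 2 repeated symbols were reduced to the line with the highest mean. Log2(FPKM + 1) of the 10447 genes that averaged 1 FPKM or more was fitted with limma 3.58.1 in R 4.3.3, with a trend on expression and Benjamini-Hochberg adjustment over all of them at 0.05. Average effects came from an additive model of genotype, LPS and nicotine (4 residual degrees of freedom), treatment effects from a model with LPS by nicotine (3), and genotype interactions from that model with the term added (2). With 1 library a group, spread is departure from each model. The fits were also run on simulated data with independent noise. That cannot show whether the p-values hold for 1 library per group. Single pairs were compared without a test, as FPKM ratios. The alternatives were pseudocounts of 0.1 and 5, no filter or a mean of at least 5 FPKM, quantile scaling, median centring, other model terms and each library left out.

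Members, gene lists, tests and the rule for named genes were chosen with earlier results of these data known. The rule names all members; for LPS without nicotine, nicotine without LPS and nicotine under LPS, the 4 pathway genes that rose most and the 4 that fell most among those called; the 3 genes most like each member; and the defining markers of each cell type. One result of the rule is not reported here. Other genes named (Tbxas1, Lta4h, Ptges2, Vsig4, Selp, Fabp7, Gata2, Ms4a2, Hdc, Mmp9, Pla2g7 and those lowered by LPS after nicotine) were chosen after their values were seen. Depth came from the most frequent ratio of low values (mean under 0.3 FPKM, bins of 0.02 on the log2 scale), a bin that held 8.49% to 15.7% of such genes. Python 3.11.15, pandas 2.3.3, NumPy 2.4.6 and Matplotlib 3.10.9 served for the rest.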

Additional observations from a re-analysis of the deposited data

Results flagged for a closer look

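For 5 members the change with LPS differed with and without nicotine by the interaction test of limma, on the log2 scale: Ptgs2 (-3.79), Pla2g4a (-3.31), Ptgs1 (1.86), Ltc4s (1.78) and Alox5ap (1.21). Beside them, 30.1% of all tested genes were called in that comparison. For another 3 the single pair had opposite signs in the genotypes, a difference that was not tested for the pair. Alox15 with LPS and no nicotine had a log2 change of -0.40 in wild type and 0.73 in knockout cells, a difference of 1.13. Ptges with nicotine alone had 0.31 and -1.18, a difference of -1.49. Ptgis with nicotine under LPS had 1.74 and -0.06, a difference of -1.80. Its knockout pair hardly moved, at 4.02 FPKM with both and 4.23 with LPS alone.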

How the results depend on the processing

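The count of members called depended on the setting. With no filter on low values it was 1 (of 3) for average LPS, 0 (of 1) for genotype, 3 (of 5) for LPS by nicotine and 3 (of 5) for nicotine without LPS. The factor as only term gave 1 for LPS and 0 for genotype, and a pseudocount of 0.1 gave 3 for nicotine without LPS. Without 1 library in turn, the counts were 1 to 3 for average LPS and 1 to 3 for average nicotine, 0 to 1 for genotype, 3 to 9 for LPS by nicotine, 3 to 7 for nicotine without LPS, 4 to 8 for nicotine under LPS, 7 to 9 for LPS without nicotine and 1 to 2 for LPS after nicotine. The signs of 2 uncalled nicotine by genotype terms turned without either LPS library, Ptgis from -0.65 to 0.154 and Alox5 from -0.59 to 0.0148, and without 1 library they ranged down to -1.46 and -1.19; the cause was not tested. With no filter the calls for Ptgis by genotype (adjusted p = 0.0529) and for LPS by nicotine of Ptgs2 (0.0541) and Alox5ap (0.0524) were lost, the fit then covering more genes. With a pseudocount of 5 or 0.1, the nicotine change of Hpgds under LPS was 1.23 or 3.25. Other called member values that the pseudocount or scaling moved by over 1.5 times stand beside their results, except some that stayed called. Those were LPS without nicotine of Ptgs2 (8.58, 10.4 and 8.81 with a pseudocount of 5, of 0.1 and quantile scaling) and Ptges (3.58, quantile scaling). The rest were LPS by nicotine of Ptgs2 (-4.40, pseudocount 0.1), average LPS of Ptgs2 (7.06, pseudocount 5) and average nicotine of Hpgds (1.19, pseudocount 5). Values not called in the main fit that moved as much are not all listed. The libraries carry no replicate numbers to block on; the matched pairs across genotypes are already part of each model through its genotype term. With 1 library per group and the depth unknown, values below about 1 FPKM, such as Hpgds with LPS, are the least certain.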
